A study of Mus musculus with 4 samples.

Results

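The enzymes that hydroxylate collagen chains and then cross-link the assembled fibers were followed in mouse lungs carrying 4T1 metastases. The 10 genes were chosen by name and by function: the lysyl oxidase genes Lox, Loxl1, Loxl2, Loxl3 and Loxl4, the lysyl hydroxylase genes Plod1, Plod2 and Plod3, and the prolyl 4-hydroxylase genes P4ha1 and P4ha2. All 10 of the 10 were found among the 56748 genes of the count table, and all 10 were among the 15320 genes that passed the filter on low counts. They were chosen with the difference between the saline and ADC/cmLumiOpto samples already known, so that difference is described here and is not a test of the choice.

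The study asked how a combined therapy acts on lung metastases of triple-negative breast cancer. Female BALB/cJ mice, 7 weeks of age, received 4T1-FLuc cells, a mouse mammary carcinoma line that expresses firefly luciferase, through the tail vein. The 2 control samples are called saline in the titles and PBS control in the treatment label. The 2 treated samples had received an antibody-drug conjugate (ADC), an anti-CD276 antibody carrying the microtubule inhibitor mertansine (DM1), together with cmLumiOpto, a gene therapy that depolarizes the mitochondria of cancer cells by luminescence. The labels give 16 mg/kg of ADC and write the gene therapy as cmLumi-Olap, whereas the methods give 8 mg/kg and do not use that abbreviation. Harvest followed 3 weeks of treatment according to the deposited design text. The labels call the material tumor cells, and the methods call it dissociated lung tissue. No group received either agent alone in the samples analyzed here, so the effects of the 2 agents cannot be told apart.

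Collagen chains are hydroxylated in the endoplasmic reticulum before they fold. Prolyl 4-hydroxylases convert proline to 4-hydroxyproline, which holds the triple helix together, and lysyl hydroxylases prepare lysine for sugar attachment and for the stronger kind of cross-link. Outside the cell, the copper-dependent lysyl oxidases oxidize lysine and hydroxylysine to aldehydes, which then join neighboring collagen or elastin molecules. In tumors this cross-linking is known for stiffening the matrix, and several of these genes are textbook targets of hypoxia-inducible factor.

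Libraries held from 15263375 to 19675436 assigned reads. A count of 3 was worth from 0.146 to 0.202 CPM (counts divided by library size in units of 1e6 and scaled by edgeR's TMM factors), for counting error only. Across all 15320 tested genes, 0 had a Benjamini-Hochberg adjusted p under 0.05 by the quasi-likelihood test of edgeR (0% of genes), and 3553 (23.2%) had an unadjusted p under 0.05. The methods speak of 4 biological samples per group, of which 2 per group were analyzed here. The labels do not say that samples came from separate mice, so p-values measure only the spread between these samples, which may be technical. Markers of normal lung moved with the groups. The summed level of 9 alveolar epithelial markers was 1676 and 382 CPM in the saline samples and 6087 and 5220 CPM in the treated samples. All 9 lay higher in both treated samples than in both saline samples, beside 28.1% of all tested genes. The 4 airway epithelial markers summed to 1149 and 80.2 CPM against 6195 and 2951 CPM. Saline replicate 2 thus held the least normal epithelial RNA of the 4 samples. The 11 leukocyte markers summed to 2642 and 1650 CPM against 5230 and 6101 CPM. Of the 10 that were tested, 4 lay higher in both treated samples, beside 28.1% of all tested genes, and 6 overlapped. The sum rested largely on Lyz2, at 1687 and 1128 against 4299 and 2447 CPM, and on S100a8, at 454 and 170 against 422 and 3089 CPM. Both genes were named after their values were seen.

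**Figure D1:**
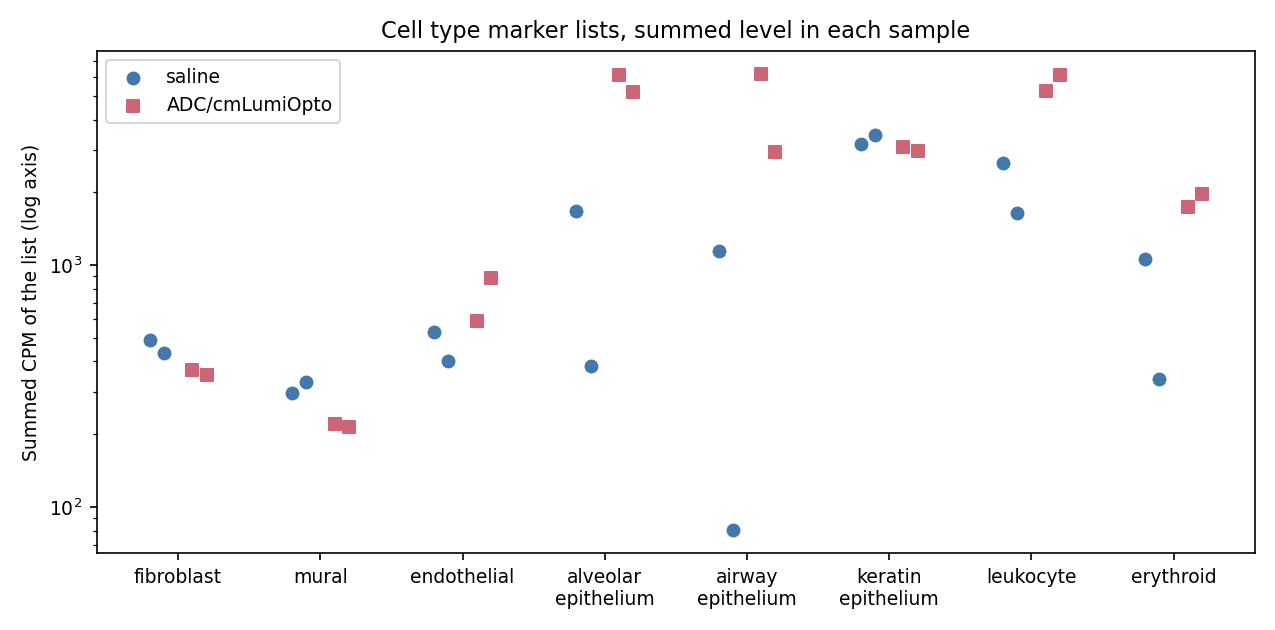
Summed CPM (log axis) of 8 lists of cell type markers in each sample, circles for saline and squares for ADC/cmLumiOpto. The sums of the alveolar, airway, endothelial, leukocyte and erythroid lists lay higher in both treated samples. Those of the fibroblast, mural and keratin lists lay lower in both (370 and 353 against 493 and 434 CPM for fibroblasts, a separation that was lost without Pdgfra). Single members of the leukocyte, mural and keratin lists did not all follow their sums.

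The 11 fibroblast markers summed to 493 and 434 CPM in the saline samples and 370 and 353 CPM in the treated samples. At an unadjusted p under 0.05 in edgeR's quasi-likelihood test, 3 were lower and 3 higher, beside 12.2% and 11% of all tested genes. After adjustment 0 were called. Of these 11, 2 lay lower and 4 higher in both treated samples, beside 28.8% and 28.1% of all tested genes. The lower sum was carried by Pdgfra, a growth factor receptor of fibroblasts, at 211 and 240 CPM against 119 and 139 CPM, and the other 10 summed to 282 and 194 CPM against 252 and 214 CPM, which overlapped. Pdgfra was singled out after its value was seen. The 10 mural markers, of pericytes and smooth muscle, summed to 295 and 328 CPM against 221 and 214 CPM. Of these, 4 lay lower and 2 higher in both treated samples, beside 28.8% and 28.1% of all tested genes, and 4 overlapped. Acta2 and Pdgfrb had log2 fold changes of -0.95 and -0.58, whereas Rgs5 and Myh11 lay in the other direction at 1.16 and 0.21. These genes were named after their values were seen. The 9 epithelial keratin and adhesion markers, which 4T1 cells and normal epithelium share, summed to 3156 and 3467 CPM against 3071 and 2974 CPM. Of the 8 that were tested, 3 lay lower and 2 higher in both treated samples, beside 28.8% and 28.1% of all tested genes. The largest, Krt8, stood at 1141 and 1543 against 1131 and 1117 CPM, and Krt7 and Cdh1 were the 2 that lay higher. These were named after their values were seen. Of the keratin and adhesion markers, Krt5 did not pass the filter on low counts and had counts in only 1 sample. In bulk RNA, fewer cells of a type and less RNA per cell cannot be told apart, and the part of these markers in the enzyme levels below was not tested.

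Of the 10 enzyme genes, 9 had a negative log2 fold change and 1 a positive value, and 7 lay lower in both ADC/cmLumiOpto samples than in both saline samples. Such a complete separation of the groups, downward, was seen for 28.8% of all tested genes, and upward for 28.1%. At an unadjusted p under 0.05 in edgeR's quasi-likelihood test, 5 of the 10 were lower and 0 were higher, beside 12.2% and 11% of all tested genes, and 0 of the 10 passed after adjustment. The count of 5 became 3 without saline replicate 1, and likewise without saline replicate 2. The adjusted p values of the 10 genes were between 0.116 and 0.898. The median log2 fold change of the 10 was -0.40, beside 0.03 for all tested genes. Medians of the role groups were -0.78 for the lysyl oxidases, -0.39 for the lysyl hydroxylases and -0.08 for the 2 prolyl 4-hydroxylases. The ranges overlapped, with Loxl4 at -0.30 above Plod1 and Plod2 at -0.41 and -0.39. P4ha3, another prolyl 4-hydroxylase gene, was not among the 10 and was listed with the other endoplasmic reticulum genes. Its log2 fold change was -0.66 (standard error 0.39), at 7.38 and 6.74 CPM against 5.72 and 3.22 CPM, lower in both treated samples. P4ha3 was named after its value was seen. The difference between the role groups was not tested.

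**Figure D2:**
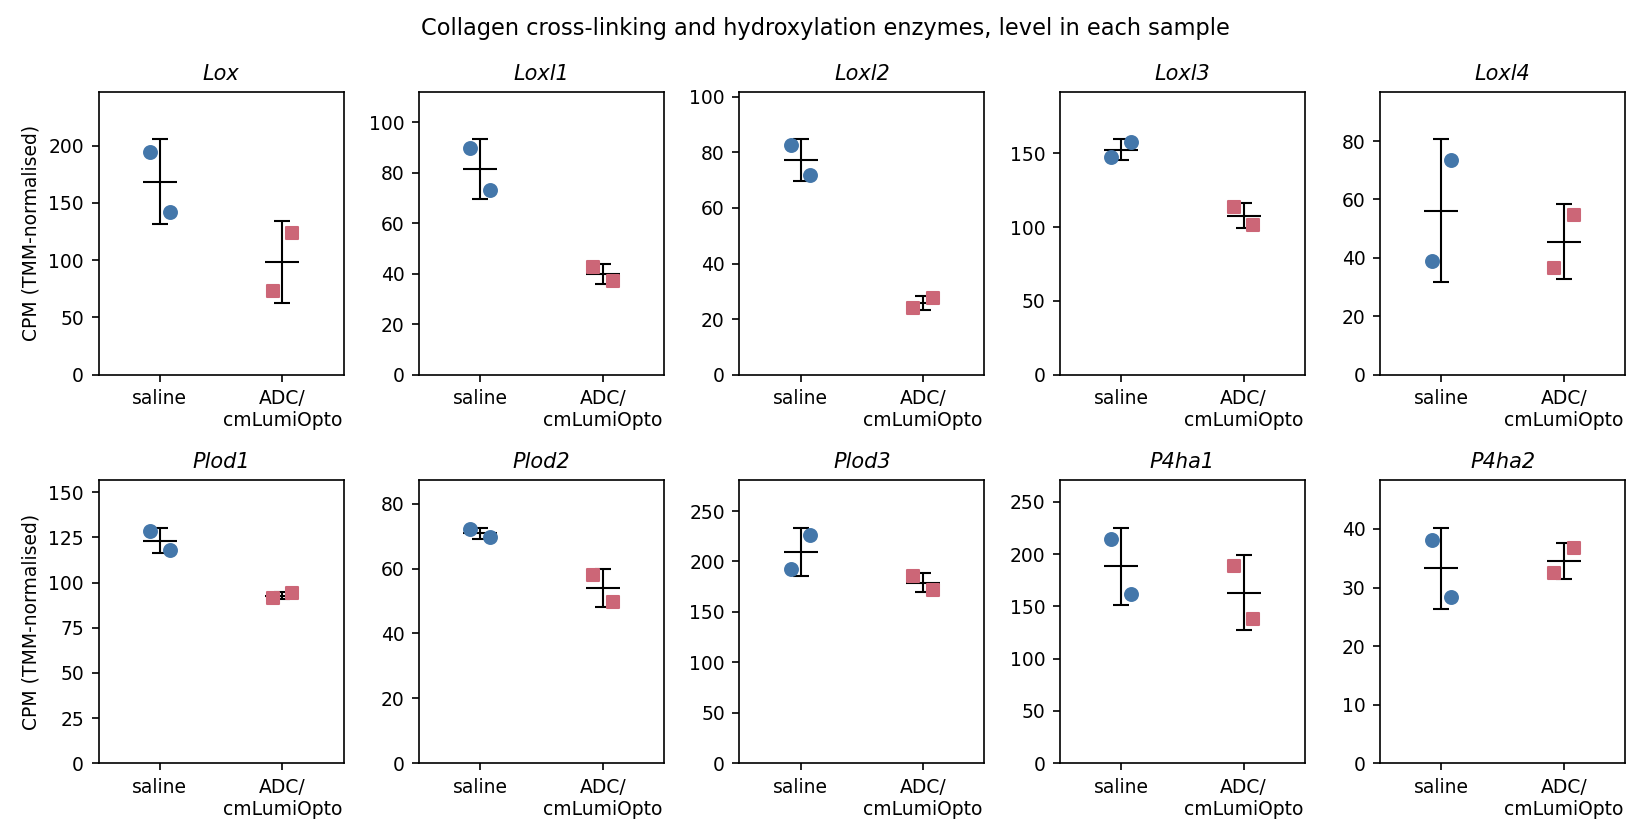
TMM-normalised CPM of the 10 enzyme genes in each sample, with the mean (horizontal bar) and SD (whiskers, n = 2) of each group. The treated samples lie below the saline samples for Lox, Loxl1, Loxl2, Loxl3, Plod1, Plod2 and Plod3, and the groups overlap for Loxl4, P4ha1 and P4ha2.

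Among the lysyl oxidases, Loxl2 had the most negative value. This secreted enzyme carries scavenger receptor domains besides its catalytic domain and is known for cross-linking collagen IV of basement membranes and for its part in tumor cell invasion. Gene positions are the spans listed in the count table, on mm39 as named in the submitters' processing notes. Loxl2 (ENSMUSG00000034205, chr14:69846517-69933283, plus strand) had 1321 and 1068 counts after saline and 424 and 568 after treatment, or 82.6 and 72.0 CPM against 24.0 and 27.7 CPM. The groups were far apart, since the higher saline sample exceeded the lower by 1.15-fold and the same held within the treated group at 1.15-fold. Group means were 77.3 ± 7.49 CPM (SD, n = 2) and 25.9 ± 2.59 CPM (SD, n = 2). The log2 fold change was -1.58 (standard error 0.18), which left 33.5% of the saline level. With each sample left out in turn it was between -1.69 and -1.48.

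Loxl1 is the family member most closely tied to elastic fibers, where it works with fibulin-5. Loxl1 (ENSMUSG00000032334, chr9:58195021-58220469, minus strand) had 1437 and 1085 counts against 754 and 763, which were 89.8 and 73.1 CPM in the saline samples and 42.7 and 37.2 CPM in the treated samples. Both treated samples lay well below the lower saline sample. Means were 81.5 ± 11.8 CPM (SD, n = 2) and 40.0 ± 3.91 CPM (SD, n = 2). The log2 fold change, -1.03 (standard error 0.18), was between -1.17 and -0.88 with each sample left out.

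Lox, the founding member, acts on both fibrillar collagen and elastin and is released from a proenzyme by the procollagen protease BMP1. Lox (ENSMUSG00000024529, chr18:52649139-52662939, minus strand) had 3116 and 2113 counts after saline and 1288 and 2533 after treatment. In CPM these were 195 and 142 against 73.0 and 124, so the groups did not overlap but the treated samples differed from each other by 1.69-fold. The log2 fold change was -0.78 (standard error 0.29), and the spread within the treated group set its precision: without ADC/cmLumiOpto replicate 1 it was -0.45, and without ADC/cmLumiOpto replicate 2 it was -1.21. Without saline replicate 1 the value was -0.55 and without saline replicate 2 it was -0.99.

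Loxl3 and Loxl4 are built like Loxl2, with scavenger receptor domains. Loxl3 (ENSMUSG00000000693, chr6:83011154-83029543, plus strand) stood at 147 and 158 CPM in the saline samples and 114 and 102 CPM in the treated samples, with means of 152 ± 7.24 CPM (SD, n = 2) and 108 ± 8.54 CPM (SD, n = 2) and a log2 fold change of -0.50 (standard error 0.16). Its samples agreed closely within each group, and the groups did not overlap. In the table Loxl3 shares 1297 bases with Htra2 on the opposite strand, and because the strand setting of the counting is not given in the sources used here, reads from the shared stretch cannot be assigned with certainty. Htra2, a mitochondrial protease gene, had 558 and 502 counts against 793 and 822, 30.4% of those of Loxl3. Its log2 fold change was 0.31, the opposite sign to Loxl3.

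Loxl4 (ENSMUSG00000025185, chr19:42582421-42601252, minus strand) had 620 and 1090 counts after saline and 642 and 1120 after treatment, or 38.8 and 73.5 CPM against 36.4 and 54.6 CPM. The groups overlapped, and the saline samples differed from each other by 1.90-fold, more than the group means did. Its log2 fold change of -0.30 (standard error 0.34) became 0.23 without saline replicate 2. A difference was not detectable for Loxl4 at this spread.

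The make-up of the lysyl oxidase family was compared per transcript length, as RPKM (CPM divided by the length of the gene model in kilobases). Summed over the 5 genes, the family stood at 125 and 117 RPKM in the saline samples and 66.0 and 77.3 RPKM in the treated samples, a ratio of 0.594 between the group means. Loxl2 made up 12.3% and 11.4% of this sum after saline and 6.73% and 6.63% after treatment, whereas the shares of the other genes overlapped between the groups. The Loxl2 share restates its level against the family sum and is not a separate observation. By level, 4 of the 5 genes lay lower in both treated samples, beside 28.8% of all tested genes. Lox and Loxl3 were the most abundant in every sample, with shares of 32.7%, 25.5%, 23.1% and 33.4% for Lox and 25.7%, 29.3%, 37.4% and 28.6% for Loxl3 (the saline samples first). The order of these 2 genes changed from sample to sample.

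**Figure D3:**
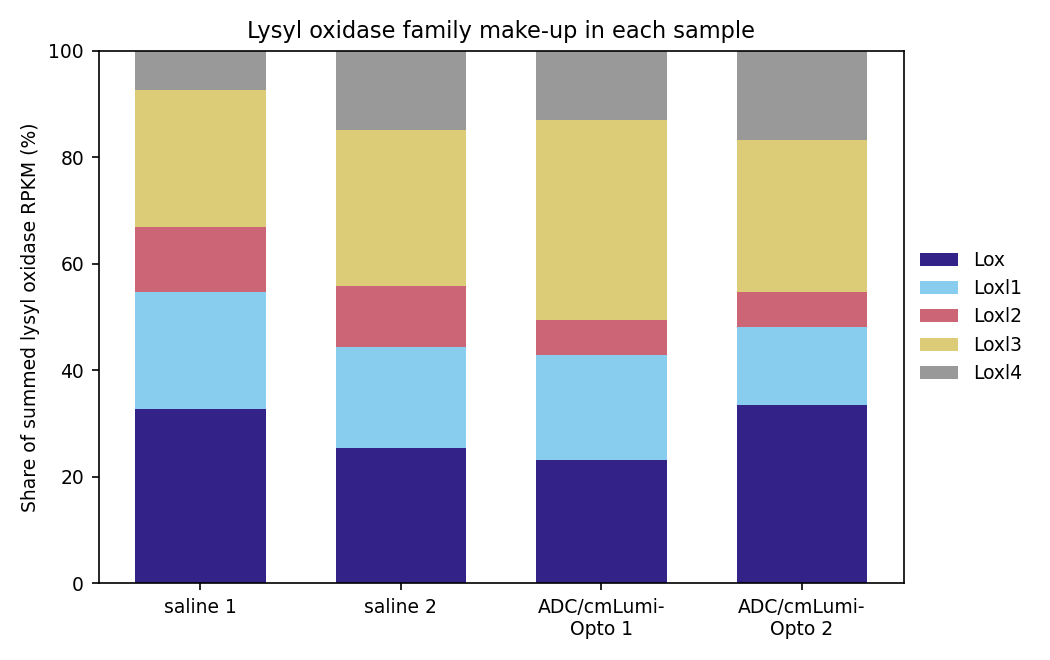
Share of each lysyl oxidase gene in the summed RPKM of the family (%), 1 stacked bar per sample. The Loxl2 segment shrinks from 12.3% and 11.4% in saline to 6.73% and 6.63% in the treated samples, whereas the shares of the other genes overlap between groups. The Loxl2 share restates its level against the family sum.

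Of the lysyl hydroxylases, PLOD1 hydroxylates lysine in the helical part of the chain. Plod1 (ENSMUSG00000019055, chr4:147994210-148021224, minus strand) stood at 128 and 118 CPM in the saline samples and 91.2 and 94.2 CPM in the treated samples, with means of 123 ± 7.15 CPM (SD, n = 2) and 92.7 ± 2.10 CPM (SD, n = 2). The groups were separate, and the log2 fold change of -0.41 (standard error 0.16) was the only one of the 3 lysyl hydroxylases with an unadjusted p under 0.05 in edgeR's quasi-likelihood test. That p was above 0.05 with DESeq2, with edgeR's exact test, with the replicate block and with the length trend removed.

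PLOD2 hydroxylates lysine in the telopeptides, the chain ends where cross-links start, and is known from fibrosis. Plod2 (ENSMUSG00000032374, chr9:92424276-92490481, plus strand) stood at 72.1 and 69.6 CPM against 58.1 and 49.8 CPM, a log2 fold change of -0.39 (standard error 0.17), and its groups did not overlap. An unclassified transcript on the opposite strand, B430319G15Rik, shares 647 bases with Plod2 and had 25, 24, 23 and 17 counts, 2.10% of those of Plod2.

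PLOD3 is known for attaching sugars to hydroxylysine in addition to its hydroxylase activity. Plod3 (ENSMUSG00000004846, chr5:137015873-137025502, plus strand) stood at 192 and 227 CPM against 186 and 172 CPM. Its groups lay next to each other without overlap, with 186 CPM in the higher treated sample and 192 CPM in the lower saline sample. The log2 fold change was -0.23 (standard error 0.17), between -0.35 and -0.10 with each sample left out. Plod3 shares 1003 bases with Znhit1 on the opposite strand. Znhit1 had 633 and 595 counts against 817 and 817, 21.6% of those of Plod3, and a log2 fold change of 0.11. As for Loxl3, reads from the shared stretch cannot be assigned with certainty, and their part in the small difference of Plod3 was not tested.

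The prolyl 4-hydroxylase genes encode the catalytic α subunits, which pair with protein disulfide isomerase, the product of P4hb. P4ha1 (ENSMUSG00000019916, chr10:59159118-59209126, plus strand) had 3429 and 2401 counts after saline and 3321 and 2820 after treatment. In CPM the values were 214 and 162 against 188 and 138, which overlapped. The log2 fold change of -0.21 (standard error 0.23) was -0.0029 without saline replicate 1 and -0.45 without ADC/cmLumiOpto replicate 1.

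P4ha2 (ENSMUSG00000018906, chr11:53990921-54022491, plus strand) had 611 and 421 counts against 572 and 754, or 38.2 and 28.4 CPM against 32.4 and 36.8 CPM. Its value was the only positive log2 fold change of the 10, 0.06 (standard error 0.21). The sign turned without saline replicate 2 (-0.14) and without ADC/cmLumiOpto replicate 2 (-0.04). P4ha1 made up 89.5% and 89.6% of the summed RPKM of the pair after saline and 89.8% and 85.0% after treatment. The major α subunit of this pair was thus the same in every sample.

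The stretches just before the transcription start were read in RefSeq's promoter set (GRCm38.p6), since P4ha1, P4ha2 and Plod1 are textbook hypoxia targets. Windows were read for 5 of the 10 members, namely Loxl4, Plod1, Plod3, P4ha1 and P4ha2. Loxl1, Loxl2, Loxl3 and Plod2 had no window in the set, and Lox was left out of the reading. The matches below therefore say nothing of Lox, whose levels did not overlap between the groups. The 250 bases before the start are printed for 3 of them, 5′ to 3′ on the strand of the gene, with matches to the core of the hypoxia-inducible factor motif in capitals (ACGTG or GCGTG, on either strand). The 2 prolyl 4-hydroxylases are shown because their levels overlapped between the groups, and Plod1 because its levels did not. The windows are chr10:59323046-59323295 for P4ha1, chr11:54100674-54100923 for P4ha2 and chr4:147936777-147937026 for Plod1.
P4ha1: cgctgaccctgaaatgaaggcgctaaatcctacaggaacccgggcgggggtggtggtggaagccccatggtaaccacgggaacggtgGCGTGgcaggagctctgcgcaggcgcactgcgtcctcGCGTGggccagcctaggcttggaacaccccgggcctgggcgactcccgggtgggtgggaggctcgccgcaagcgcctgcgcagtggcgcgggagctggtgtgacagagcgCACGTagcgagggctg
P4ha2: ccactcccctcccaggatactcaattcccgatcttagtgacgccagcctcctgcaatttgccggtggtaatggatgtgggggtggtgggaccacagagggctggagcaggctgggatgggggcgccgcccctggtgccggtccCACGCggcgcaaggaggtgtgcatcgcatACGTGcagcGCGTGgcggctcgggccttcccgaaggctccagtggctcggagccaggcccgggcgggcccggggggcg
Plod1: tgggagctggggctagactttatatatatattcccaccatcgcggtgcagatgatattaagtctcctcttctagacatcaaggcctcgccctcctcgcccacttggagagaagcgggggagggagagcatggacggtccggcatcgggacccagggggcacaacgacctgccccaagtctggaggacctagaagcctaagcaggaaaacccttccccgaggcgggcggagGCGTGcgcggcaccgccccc
The P4ha1 and P4ha2 windows held 3 matches each, the Plod3 window 4, and the Plod1 and Loxl4 windows 1 each. Levels of Plod3 did not overlap between the groups, whereas those of Loxl4 did, so the printed windows do not stand for all 5. Among 32851 windows of the same length in the set, 38.6% held at least 1 match and 6.58% held 3 or more. Matches to TGANTCA, the AP-1 motif (held by 6.75% of all windows), and to GGAATG, the TEAD motif (12.6%), did not occur in the 5 windows on either strand. Such a match is a description of the letters and not a site.

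Levels of the 10 genes can be ordered by RPKM. In the saline samples Plod3 (46.4 ± 5.33 RPKM, SD, n = 2) and P4ha1 (45.7 ± 9.03) stood highest and did not differ beyond their spread, followed by Lox (35.3 ± 7.75) and Loxl3 (33.1 ± 1.57), which did not either. Next came Loxl1 (24.7 ± 3.58), Plod1 (18.2 ± 1.06), Loxl2 (14.3 ± 1.39), Loxl4 (13.3 ± 5.83) and Plod2 (13.1 ± 0.330), with the last 3 within their spread of each other, and P4ha2 was lowest (5.34 ± 1.11). After ADC/cmLumiOpto P4ha1 (39.6 ± 8.71) and Plod3 (39.6 ± 2.12) again stood highest, followed by Loxl3 (23.4 ± 1.85) and Lox (20.6 ± 7.48). Plod1 (13.7 ± 0.310), Loxl1 (12.1 ± 1.18), Loxl4 (10.8 ± 3.06) and Plod2 (10.01 ± 1.09) came next, each within the spread of Loxl4. Loxl2 moved from 7th by group mean to the lowest of the 10 (4.79 ± 0.480), in both treated samples, where it and P4ha2 (5.54 ± 0.493) were less than the sum of their SDs apart.

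The enzymes were then set against their substrate. The summed level of 5 fibrillar collagen genes (Col1a1, Col1a2, Col3a1, Col5a1 and Col5a2, chosen with earlier results known) was 627 and 437 RPKM in the saline samples and 195 and 158 RPKM in the treated samples, a ratio of 0.331 between group means. The 10 enzymes together went from 258 and 241 RPKM to 182 and 178 RPKM, a ratio of 0.722. Per 1000 RPKM of these collagens, P4ha1 stood at 83.0 and 89.9 RPKM in saline and 235 and 211 RPKM after treatment. For 9 of the 10 genes this level was higher in both treated samples than in both saline samples, with ratios between 1.46 for Loxl1 and 3.17 for P4ha2. The same held for 93.6% of all tested genes, whose median ratio was 3.02, since the collagen sum in the denominator was lower after treatment, so nothing is read from the count of 9. For Lox the size of the ratio rested on ADC/cmLumiOpto replicate 2, with at most 68.1 RPKM per 1000 in saline and 78.5 and 163 after treatment. For Loxl4 the ratio of 2.32 became 4.31 without saline replicate 2. Loxl2 overlapped between the groups, at 24.4 and 30.4 RPKM against 22.8 and 32.4 RPKM per 1000, a ratio of 1.01. This ratio follows from the Loxl2 level, 33.5% of saline, and the collagen ratio of 0.331, so it is not a separate result.

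With all 15 substrate genes in the denominator, which adds basement membrane collagens and elastin, the ratio was 0.749 for Loxl2, 1.10 for Loxl1 and 1.31 for Lox, and it was between 1.57 and 2.34 for the other 7. The per-collagen levels share 1 denominator, so the 9 genes are not separate observations.

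**Figure D4:**
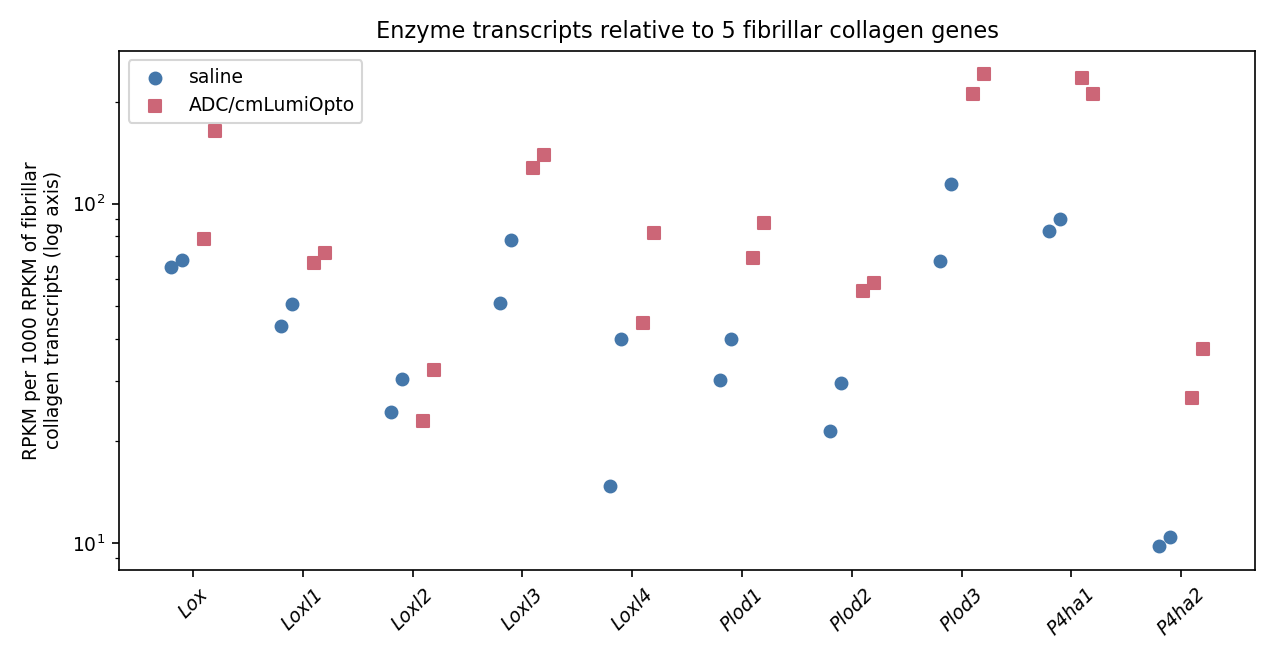
RPKM of each enzyme gene per 1000 RPKM summed over 5 fibrillar collagen genes (log axis), circles for the 2 saline and squares for the 2 ADC/cmLumiOpto samples. Both squares lie above both circles for every gene except Loxl2, whose values overlap between 22.8 and 32.4, and the same held for 93.6% of all tested genes.

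Other genes of collagen maturation were followed in 4 lists with 49 genes, of which 47 were tested, and 18 hypoxia targets in a list of their own. Of the 47, 17 were lower and 4 higher at an unadjusted p under 0.05 in edgeR's quasi-likelihood test, beside 12.2% and 11% of all tested genes, and 0 passed after adjustment. At an adjusted p under 0.05, DESeq2 called 15 lower and 2 higher, beside 4.64% and 3.79% of genes. The exact test of edgeR called 12 lower and 2 higher, beside 3.68% and 3.96%. Of the 4 lists, the substrates held the most genes at an unadjusted p under 0.05 in edgeR's quasi-likelihood test. These were 10 of 15 lower and 1 higher, and the list median log2 fold change was -1.11. Col11a1, a minor fibrillar chain, had 166 and 123 counts against 6 and 12, a log2 fold change of -4.30 (standard error 0.45). Col1a1 and Col5a1, chains of collagens I and V, had log2 fold changes of -2.02 and -1.52 (standard errors 0.24 and 0.15). Col4a4, a chain of lung basement membrane, lay in the other direction at 1.43 (standard error 0.37) and was named after its value was seen.

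The remaining enzymes and chaperones of the endoplasmic reticulum had 1 of 13 lower and 0 higher, beside 12.2% and 11% of all tested genes. This was at an unadjusted p under 0.05 in edgeR's quasi-likelihood test, and the list median log2 fold change was 0.08. The gene below the threshold was Fkbp10, which encodes the chaperone FKBP65 that lysyl hydroxylation of telopeptides needs. Fkbp10 had 793 and 528 counts against 314 and 419, a log2 fold change of -1.16 (standard error 0.22). P3h1, a prolyl 3-hydroxylase, and Colgalt2, which adds galactose to hydroxylysine, had log2 fold changes of -0.34 and 2.09 at unadjusted p values of 0.0724 and 0.0565 in edgeR's quasi-likelihood test. Colgalt2 rested on 15 and 1 counts against 44 and 39.

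For secretion and propeptide processing, 3 of 10 tested genes were lower and 1 higher at that unadjusted threshold. The shares of all tested genes were again 12.2% and 11%. Adamts2, which removes the amino-terminal propeptide of fibrillar collagens, had 920 and 820 counts against 521 and 459, a log2 fold change of -1.12 (standard error 0.19). For Bmp1, which cuts the carboxy-terminal propeptide and activates LOX, the log2 fold change was -0.61 (standard error 0.17). Pcolce2, an enhancer of that cleavage, lay in the opposite direction at 0.85 (standard error 0.17).

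Partners and cofactor supply of the lysyl oxidases showed both directions, with 3 of 9 lower and 2 higher at the same unadjusted threshold. Beside these stood 12.2% and 11% of all tested genes. Atp7a, the copper pump that loads lysyl oxidases in the secretory pathway, had 576 and 430 counts against 360 and 368, a log2 fold change of -0.76 (standard error 0.21). Fn1 and Fbn1, matrix proteins of the fibronectin and fibrillin networks, had values of -0.76 and -1.03 (standard errors 0.18 and 0.24). The 2 genes that were higher were Atox1, a copper chaperone, at 0.53 and Fbln5, the fibulin partner of LOXL1, at 1.00; they lie outside the rule for naming and were singled out after their values were seen.

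Hypoxia targets other than the enzymes had a median log2 fold change of -0.49, with 7 of 18 lower and 1 higher at an unadjusted p under 0.05 in edgeR's quasi-likelihood test, again beside 12.2% and 11% of all tested genes. Ndrg1 had 10386 and 5793 counts against 4383 and 5272, a log2 fold change of -1.04 (standard error 0.26). Pdk1, which limits pyruvate entry into mitochondria, and Kdm3a, a histone demethylase, had values of -0.88 and -0.81 (standard errors 0.22 and 0.21). The gene in the other direction was Pfkfb4, a regulator of glycolysis, at 1.03, again named after its value was seen. P4ha1 and P4ha2, at -0.21 and 0.06, lay above the median of this list, as did Loxl4 at -0.30, Plod1 at -0.41, Plod2 at -0.39 and Plod3 at -0.23. Below it lay Lox at -0.78, Loxl1 at -1.03, Loxl2 at -1.58 and Loxl3 at -0.50. A link of the enzymes to hypoxia was not tested.

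**Figure D5:**
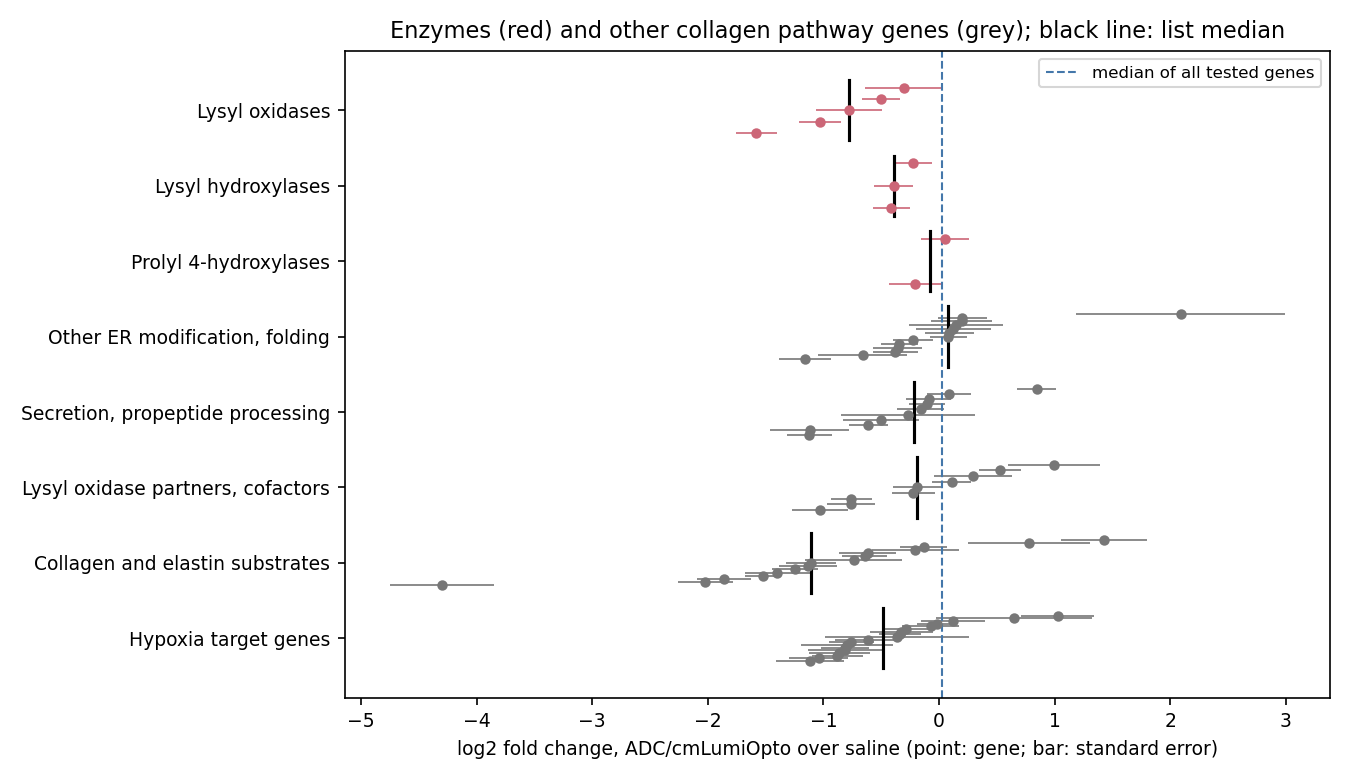
Log2 fold change (ADC/cmLumiOpto over saline) with its standard error for each enzyme gene (red) and each tested gene of 5 other lists (grey), with list medians as black lines and the median of all tested genes (0.03) as a dashed line. The substrate list has the lowest median (-1.11), followed by the lysyl oxidases (-0.78), and the list of other endoplasmic reticulum enzymes lies at 0.08.

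The profile of each role group over the 4 samples was also set against every other tested gene, by the Euclidean distance between centered log2 CPM values. Closest to the mean lysyl oxidase profile were Trf, Mtcl1 and Garre1, at distances of 0.035, 0.041 and 0.041. For the lysyl hydroxylases they were Vps51, Vps41 and Sfxn1, at 0.020, 0.023 and 0.026. For the prolyl 4-hydroxylases, whose mean profile was highest in saline replicate 1, they were Prcp, Vegfb and Tmem86a, at 0.046, 0.055 and 0.055. These distances rest on 4 samples and say nothing of shared function or control.

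The calls for the enzymes moved with the test. With DESeq2, 2 of the 10 had an adjusted p under 0.05, both lower, beside 4.64% of genes called lower, and they were Loxl1 (adjusted p = 0.00138) and Loxl2 (adjusted p = 4.46e-08). With edgeR's exact test the same 2 genes were called, beside 3.68% of genes, at adjusted p values of 0.00197 and 5.97e-08. Without the filter on low counts, edgeR's quasi-likelihood test called Lox, Loxl1 and Loxl2, with adjusted p values of 0.00421, 1.02e-04 and 1.61e-10, beside 4.05% of genes called lower. The lysyl and prolyl hydroxylases were not called in any of these 3 settings. Longer genes had lower values across the transcriptome (Spearman's rho -0.34 between log2 fold change and length over 15320 genes, which are not independent), and with that trend removed the log2 fold changes were -1.55 for Loxl2, -1.17 for Loxl1 and -0.79 for Lox.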

How the data were processed

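Messenger RNA of 2 saline and 2 ADC/cmLumiOpto samples was sequenced, and the authors deposited counts, the raw number of reads assigned to each of 56748 Ensembl genes, without normalization. The study's methods name HISAT2 and GRCm38, whereas the submitters' processing notes name mm39. Of the 10 enzyme genes, 0 had the start and end of the GENCODE annotation of GRCm38, so positions are given as in the table, with mm39 as the build of the notes. The counting program and its strand setting are not given in the sources used here.

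Columns were assigned to samples by library name. The fit used edgeR 4.0.16 under R 4.3.3 (filterByExpr at its minimum count, 10, and minimum total, 15, TMM, glmQLFit and glmQLFTest, Benjamini-Hochberg adjustment over 15320 genes, threshold 0.05, prior count 0.125). Standard errors are the log2 fold change divided by the square root of F. RPKM used the gene length in the table. For 2 against 2 samples the smallest two-sided p of an exact permutation test is 0.333. Alternatives were DESeq2 1.42.0, library size, upper-quartile factors, the exact test, 2 filters, a replicate block, removal of a lowess trend on length (span 0.3) and each sample left out. The enzymes and all lists were chosen with earlier results of these data known. The genes named are the 10 enzymes, the 3 genes with the smallest p of each other list, genes overlapping an enzyme, and the 3 nearest profiles per role, apart from those said to be named later. The other collagen denominators were added after seeing the data.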

Additional observations from a re-analysis of the deposited data

How the results depend on the processing

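All 12 alternatives kept the sign of the log2 fold change for 8 of the 10 enzymes. Loxl4 turned to 0.23 without saline replicate 2, and P4ha2 turned to -0.14 without saline replicate 2 and to -0.04 without ADC/cmLumiOpto replicate 2. The median of the 10 was -0.32 with upper-quartile normalization and between -0.46 and -0.43 with each sample left out. Genes at an adjusted p under 0.05 numbered 1178 with DESeq2, 1170 with the edgeR exact test, 2259 without the filter on low counts, 607 with the replicate block, and between 0 and 218 with each sample left out, the most without saline replicate 1, against 0 in the report. Enzymes called were 2, 2, 3 and 2 in the first 4 of these, all lower. Beside them, genes called lower numbered 648 of 13969, 564 of 15320, 1035 of 25563 and 299 of 15320. Without saline replicate 1 the log2 fold change of Loxl2 was -1.49. Genes called in the 5 other lists, hypoxia targets included, were 24, 19, 31 and 15, and between 0 and 4 with a sample left out. Enzymes at an unadjusted p under 0.05 in edgeR numbered 3 with library size in place of TMM and between 3 and 5 with a sample left out. Where a sample was left out, the lone sample of its group was assumed to vary like the others. The cause of these shifts was not tested.

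Replicate numbers are in the titles, but nothing says that they pair the mice, and deviations of same-numbered samples correlated at 0.0985 over genes (Pearson's r). With the replicate block, Loxl1 and Loxl2 had adjusted p values of 0.0278 and 0.0105 in edgeR. With 2 samples per group, a difference as small as that of Plod3 or P4ha1 was not resolved.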
